A study of Mus musculus with 4 samples.

Results

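Fetal mouse liver after food deprivation was compared with control fetal liver on 2 dye-swapped arrays, of 4 in the series, chosen by labels that name fetal control and fetal FD (food-deprived) RNA. All mice were C57BL/6J, an inbred laboratory strain, in a room with 12 hours of light and 12 of dark (lights on at 8 in the morning). The housing text, which gives free access to chow and water, is the same for both conditions. Liver RNA of 5 to 10 animals was pooled per condition, and the pools were labelled with Cy3 and Cy5 on the first array and with the dyes exchanged on the second. The labels number the pools 1 and 2 by array and do not settle whether these are the same RNA, so the arrays were read as repeat measurements of 1 pool per condition. The differences below therefore have no biological replicate check and no test, and the spread between the arrays may be technical only. The sources used here do not give how long food was withheld, the stage of gestation or the sex of the fetuses. Of 41174 gene probes on the array, those above background stood for 18055 measured genes, which are the genes described. The study's title places the question in the developmental origins of later disease.

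Late in gestation the fetal liver is at once the main site of blood cell formation and a hepatocyte mass that is acquiring adult functions. The fetus normally lives on maternal glucose, makes fatty acids and cholesterol in its own liver, and switches on glucose production from amino acids and lactate around birth. In adult liver, fasting lowers insulin and raises glucagon and glucocorticoids, which shuts down the SREBP transcription factors of lipid synthesis and switches on gluconeogenesis, fatty acid oxidation through the nuclear receptor PPARA, and amino acid breakdown. In a bulk pool, fewer cells of a type and less RNA per cell cannot be told apart.

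Calls were made by size: the mean of a gene's log2 ratios, food-deprived over control, had to reach 1 or -1 (2-fold), with 1.5-fold or more on both arrays and 1 sign. By this rule 132 genes (0.731% of those measured) were called, 84 higher (0.465%) and 48 lower (0.266%). Counts of called list members below are to be read beside these shares. With loess replaced by median centring of each array the split was 68 higher and 23 lower, so 74.7% instead of 63.6% of the calls were higher. With the second array's ratio left unturned, as for a difference that follows the dye, 0 genes were called. Over all measured genes the median log2 ratio was 0.0035, 51.2% lay above 0, 96.1% lay within 0.5 of 0, and the standard deviation between the arrays was 0.149. Among called genes the arrays differed by a median of 0.186, and in all 132 both food-deprived signals lay outside the range of both control signals, as the call rule largely requires. In all, 101 of the 132 changed by less than 3-fold and 8 by 4-fold or more. Calls depend on the array and the scaling in part. On the first array alone, with 2-fold required there, Acot1, Adora1, Gamt, Hsph1, Mbl2, Ppargc1b, Serpina3n and Slco1b2 of the genes named below lost their call. On the second alone Acly, Acot5, Apob, Aqp8, Atp2b2, Fads1, Fads2, Fhad1, Inmt, Mt2, Pcolce2, Serpina3m and Slc25a4 did. Median centring ended among others the calls of Fasn, Srebf1, Hmgcs1, Idi1, Fdps, Sc5d, Lss, Cyp2e1, Cebpd, Gnmt, Mat1a, Por, Egr1, Cxcl10 and C4bp, all with the sign kept. Averaging over the probes of a gene ended those of Hmgcs1, Idi1, Acss2, Akr1c20, Apob, Tef, Dcxr, Cyp4a12a, Lgals4, Adora1, Abhd15, Ppargc1b, Ppp1r1a, Slc25a4 and Stard5. In pairs of values below, the first array (food-deprived RNA in Cy5) comes first, and signals are normalised intensities in arbitrary units that compare conditions for a gene but not one gene with another.

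**Figure D1:**
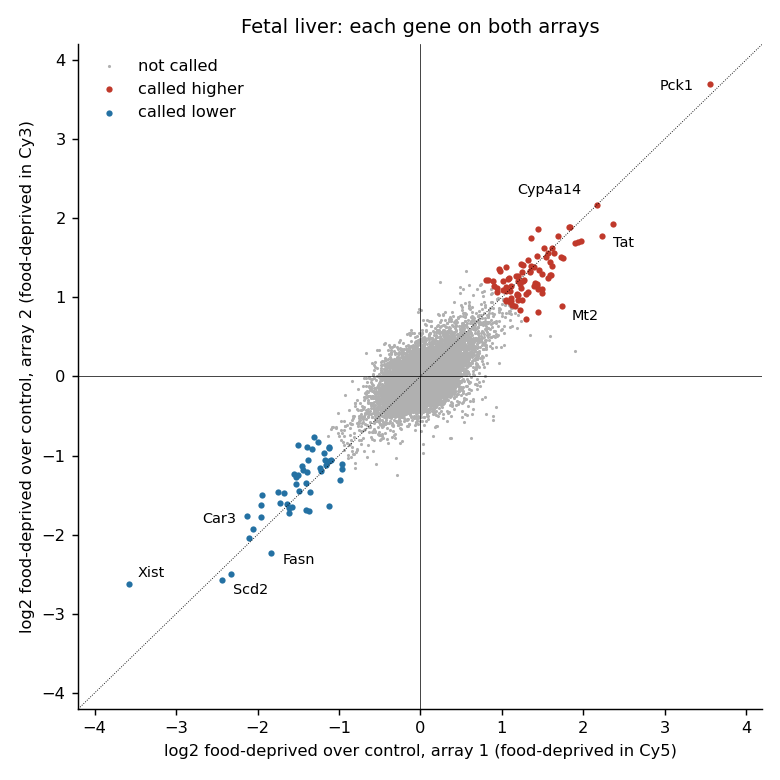
Log2 ratio of food-deprived over control for the 18055 measured genes on the first array (x axis) and the second, dye-swapped array (y axis), with 84 genes called higher in red and 48 called lower in blue. Called genes lie near the dotted line of equal ratios; Pck1 stands furthest out at 3.56 and 3.69, and Mt2 and Xist lie off the line at 1.74 and 0.89 and -3.58 and -2.62.

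Several genes of glucose production rose. Pck1, which encodes the rate-controlling phosphoenolpyruvate carboxykinase, went from control signals of 1542 and 1599.7 to food-deprived signals of 18172 and 20622, log2 ratios of 3.56 and 3.69 and a mean change of 12.3-fold, the largest rise among the measured genes. Of 19 measured gluconeogenesis genes 4 rose and none fell, beside 0.465% of all measured genes called higher, and the list median was 0.36. G6pc, the catalytic subunit of glucose-6-phosphatase that releases free glucose, rose from 2412 and 2645 to 6135 and 6667, 2.53-fold. Both transaminases that feed carbon skeletons into the pathway from the cytosol rose as well: Gpt (alanine) from 369.8 and 381 to 1132 and 999.5, and Got1 (aspartate) from 2295 and 2619 to 5505 and 6062. In each of these genes both food-deprived signals lay above both control signals. The conditions were likewise separate in all 132 called genes, as the call rule largely requires. Just short of a call were Slc37a4, the glucose-6-phosphate transporter, at 0.88 and 1.06, and Ppargc1a, a coactivator of the pathway, at 1.10 and 0.89. The mitochondrial counterparts were not called, with Pck2 at 0.12 and -0.068 and Gpt2 at -0.034 and -0.16. Fbp1, the fructose-bisphosphatase, gave different values on the arrays, 0.66 and 0.016.

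The promoter of Pck1 is shown because its gene changed most and because a cyclic AMP response element in it is a textbook site of control by glucagon. The sequence is from RefSeq (GRCm38.p6, chr2:173152823-173153072, plus strand) and covers the 250 bases before the annotated start. Capitals mark the only match to TNACGTCA, a cyclic AMP response element with its second base free, searched on both strands; it reads TTACGTCA and begins 93 bases before the start.
Pck1: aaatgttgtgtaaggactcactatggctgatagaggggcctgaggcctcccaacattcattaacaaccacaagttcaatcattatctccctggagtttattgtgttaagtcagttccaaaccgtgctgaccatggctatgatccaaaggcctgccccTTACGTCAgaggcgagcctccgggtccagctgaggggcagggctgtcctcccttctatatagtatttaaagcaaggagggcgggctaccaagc
The same letters occur in this window in 3 of 17 gluconeogenesis genes with a promoter entry, in 2.9% of 27025 genes in the table and in 4.3% of the 10864 measured genes that have an entry. A match is a description of the letters and not evidence of binding.

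Genes of glucose use gave few calls. Of 28 measured glycolysis and glucose entry genes 1 fell and none rose. Low means without a call belonged to Mlxipl, the glucose-sensing factor ChREBP, at -0.57 and -0.44, and to the liver pyruvate kinase Pklr at -0.50 and -0.46. At the other end, the glucose transporter Slc2a2 gave 0.43 and 0.42. The list's median of -0.011 took the other sign under median centring (0.19), with no background subtraction and on the second array alone. None of 22 glycogen genes was called, and their median was 0.0040, which also changed sign under some settings; Pygb, the brain-type phosphorylase, was lowest at -0.74 and -0.33, and the liver enzymes Gys2 and Pygl gave 0.091 and 0.17 and -0.13 and 0.25. Pdk4, the kinase that switches off pyruvate dehydrogenase, rose from 347 and 391 to 1027 and 1152, 2.95-fold. The 11 measured genes of that complex, its other kinases and the pyruvate carriers had no call, with Pdk2 at 0.31 and 0.29 and Pdk1 at -0.22 and -0.18.

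Several genes of fatty acid synthesis fell. Of 14 measured genes 5 fell, none rose, and 13 had means below 0, beside 0.266% of all measured genes called lower; the list median was -0.83, from -1.15 to -0.67 over the other settings. Fasn, the fatty acid synthase, went from 31271 and 29889.8 to 8796 and 6372, 4.08-fold lower. Acly, which makes cytosolic acetyl-CoA from citrate, went from 466 and 314 to 195 and 178. Acss2, which makes acetyl-CoA from acetate, went from 1772 and 1797 to 596 and 573 on its brightest probe, with a mean over its 3 probes of -0.96. Pnpla3, a lipase that follows lipogenic signals, fell from 288 and 357 to 74.8 and 126, and Aacs, which activates acetoacetate for lipid synthesis, from 2014 and 1846 to 631 and 665. For the 5 genes no food-deprived signal reached a control signal, a separation that all 132 called genes share. Srebf1, which encodes the lipogenic factor SREBP-1, fell from 12851 and 11900.3 to 5747 and 5475.

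The stearoyl-CoA desaturases had the lowest ratios of the lipid synthesis lists. Scd2, the stearoyl-CoA desaturase of fetal and early postnatal tissues, fell from 27354 and 23551 to 5048 and 3974, 5.67-fold, and Scd1, the adult liver form, from 2281 and 2581 to 455 and 458, 5.32-fold. Fads2 and Fads1, the desaturases that make polyunsaturated fatty acids, fell from 1979 and 1938 to 787 and 1022 and from 2200.4 and 1830.2 to 972 and 932. Of 12 measured desaturases and elongases these 4 fell and none rose, beside 0.266% of all measured genes called lower. Elovl5, which extends polyunsaturated chains, had the next lowest mean at -0.85 and -0.80, followed by Elovl6, which extends palmitate, at -1.01 and -0.46; Elovl2, another elongase of polyunsaturated chains, gave -0.15 and -0.63.

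Cholesterol synthesis genes fell in both parts of the pathway. In the mevalonate part 4 of 8 measured genes fell, beside 0.266% of all measured genes called lower. Among the 4 were Hmgcs1, which condenses acetyl units (24930.4 and 22226 to 9715 and 8058), Idi1 (9179.6 and 7443 to 3943 and 3236) and Fdps (14572 and 13458 to 5659.8 and 4134). From squalene on, 4 of 12 fell: Dhcr7, which completes the last reduction (8079.8 and 7297 to 2089 and 2135), Sc5d (11325 and 9655 to 3709.9 and 2909), Cyp51 (1098 and 1009.7 to 401 and 459) and Lss (2202 and 2042 to 1012 and 972). All 12 genes of this later part had means below 0, and the medians of the parts were -0.99 and -0.90, staying below 0 under each other setting tried. Dhcr7 changed 3.64-fold and Lss 2.14-fold. Just outside the rule were Sqle at -0.81 and -1.16, which keeps the mean under 2-fold, and Nsdhl at -0.88 and -1.02. Among the regulators Insig1 gave -0.88 and -0.86, Insig2 0.86 and 0.38 and Srebf2 -0.36 and -0.14.

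Promoters of fallen lipid genes are shown for Hmgcs1, the called gene of these lists that holds the sterol regulatory element searched (TCACNCCAC), and for Fasn and Dhcr7, the fallen genes of these lists that changed most among those with an entry and an NF-Y box (CCAAT); NF-Y is a factor that cooperates with the SREBPs at such promoters. Each is the 250 bases before the start from RefSeq, GRCm38.p6, written in the direction of the gene. Capitals mark CCAAT or its complement ATTGG, and in Hmgcs1 also TCACCCCAC, which begins 137 bases before the start.
Hmgcs1 (chr13:119690101-119690350, plus strand): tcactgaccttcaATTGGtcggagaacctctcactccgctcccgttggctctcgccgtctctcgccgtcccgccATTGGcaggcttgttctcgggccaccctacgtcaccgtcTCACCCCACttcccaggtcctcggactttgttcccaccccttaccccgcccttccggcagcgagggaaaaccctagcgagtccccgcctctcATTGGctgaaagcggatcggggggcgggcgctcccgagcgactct
Fasn (chr11:120824548-120824797, minus strand): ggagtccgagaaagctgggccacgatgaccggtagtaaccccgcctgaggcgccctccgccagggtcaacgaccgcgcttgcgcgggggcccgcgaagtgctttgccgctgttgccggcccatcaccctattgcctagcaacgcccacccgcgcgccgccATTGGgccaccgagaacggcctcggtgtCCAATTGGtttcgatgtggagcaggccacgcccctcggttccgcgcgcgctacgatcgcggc
Dhcr7 (chr7:143829964-143830213, plus strand): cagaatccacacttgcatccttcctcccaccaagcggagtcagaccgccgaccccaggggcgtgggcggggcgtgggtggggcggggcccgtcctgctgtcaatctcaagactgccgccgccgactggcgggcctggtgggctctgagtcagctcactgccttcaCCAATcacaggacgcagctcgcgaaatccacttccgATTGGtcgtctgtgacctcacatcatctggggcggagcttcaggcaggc
Hmgcs1 and Fasn hold 3 boxes each, of which 2 in Fasn overlap on opposite strands, and Dhcr7 holds 2. Of the 24 genes with an entry in the mevalonate, squalene and SREBP lists 20 (83.3%) hold a CCAAT box, and 1 holds the sterol element as spelled. Of the 23 with an entry in the fatty acid synthesis and desaturase lists 13 (56.5%) hold a CCAAT box and 0 the sterol element. In the table as a whole 37.5% of genes hold a CCAAT box and 1.2% the sterol element; among measured genes with an entry the shares are 39.9% and 1.3%. Of the called genes, 28 of 49 with an entry among the higher (57.1%) and 17 of 33 among the lower (51.5%) hold a CCAAT box, so the box occurred in both directions. The other called genes, among them Scd2 and Fdps, were not matched to an entry.

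**Figure D2:**
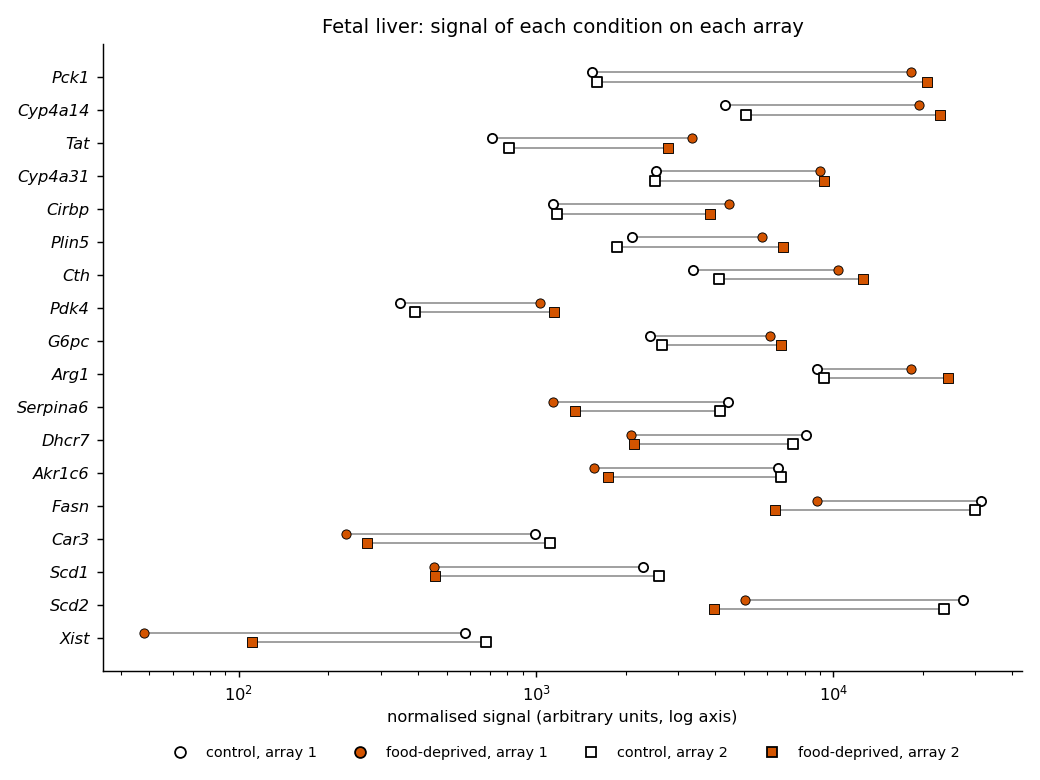
Normalised signal (arbitrary units, log axis) of control (open) and food-deprived (filled) RNA for 18 called genes on the first array (circles) and the second (squares), joined within an array. In each gene the filled symbols of both arrays lie on the same side of the open ones, as in all 132 called genes. Positions of different genes on the axis are not comparable.

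Several genes that respond to PPARA rose, and no gene of the fatty acid oxidation lists was called. The omega-hydroxylases of the Cyp4a cluster, which oxidise fatty acids at their far end, made up much of the rise: Cyp4a14 from 4307 and 5085 to 19367 and 22799 (4.49-fold), Cyp4a31 from 2529 and 2502 to 9002 and 9274, and Cyp4a10 from 684 and 607 to 1705 and 1687. Cyp4a12a rose on its brightest probe (1.43 and 1.14) and gave a mean of -0.85 on another, so its direction is not settled by these probes. These genes are close copies of each other, and probes may detect more than 1 of them. Angptl4, a secreted inhibitor of lipoprotein lipase, rose from 5218 and 6672 to 17209 and 19034, and the cytosolic thioesterase Acot1 from 2201 and 1939 to 3831 and 4493. With Pdk4, 7 of 18 measured genes of the list were called higher and none lower, with a median of 0.63. Of all measured genes 0.465% were called higher. The 7 include the 4 Cyp4a genes, Cyp4a12a among them, so they may not be 7 separate rises. Fgf21, a fasting hormone of adult liver and a known PPARA target, gave -0.15 and -0.041, with control signals of 136 and 128 and food-deprived signals of 123 and 125, far from a call. Of 17 mitochondrial beta-oxidation genes none was called, although 16 had means above 0; Cpt1a, which admits fatty acids to mitochondria, was highest at 1.20 and 0.78, followed by Eci2 at 0.70 and 1.10 and Cpt1b at 0.79 and 0.88. Of 16 peroxisomal genes none was called, with Decr2 highest at 0.65 and 0.62. The medians of these lists were 0.21 and 0.18.

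Ketone synthesis had no called gene among 9 measured. The ketone transporter Slc16a7 was highest at 0.51 and 0.51, and Slc16a1, another carrier of the family, lowest at -0.35 and -0.12. Lipid droplet proteins gave 1 rise and 1 fall among 15: Plin5, which coats droplets at mitochondria, rose from 2105 and 1866 to 5732 and 6756 (3.14-fold), and Abhd5, the coactivator of the triglyceride lipase Pnpla2, fell from 1198 and 991 to 442 and 438. Pnpla2 gave 0.90 and 0.68 and Cidec 0.85 and 0.60. None of 16 triglyceride synthesis genes was called; Lpin1 was highest at 0.74 and 0.91. In the list of fatty acid uptake and activation the lowest means were those of the binding proteins Fabp1 at -0.54 and -1.10 and Fabp5 at -0.73 and -0.86, and the highest those of Acsm3 at 0.84 and 0.80 and Acsl1 at 0.79 and 0.50; none of 14 was called, and the median of 0.017 changed sign under some settings. Of 22 lipoprotein genes 2 rose: Apoa5, which promotes triglyceride clearance, from 5089 and 5379 to 14533 and 16511, and Apob, the backbone of secreted lipoproteins, from 8097 and 8466 to 18181 and 15737 on the brightest of 5 probes, whose mean was 0.60. Phyh, which starts the breakdown of branched fatty acids in peroxisomes, and Abhd15, a lipid-related hydrolase, rose 2.33-fold and 2.6-fold; neither was in a list.

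**Figure D3:**
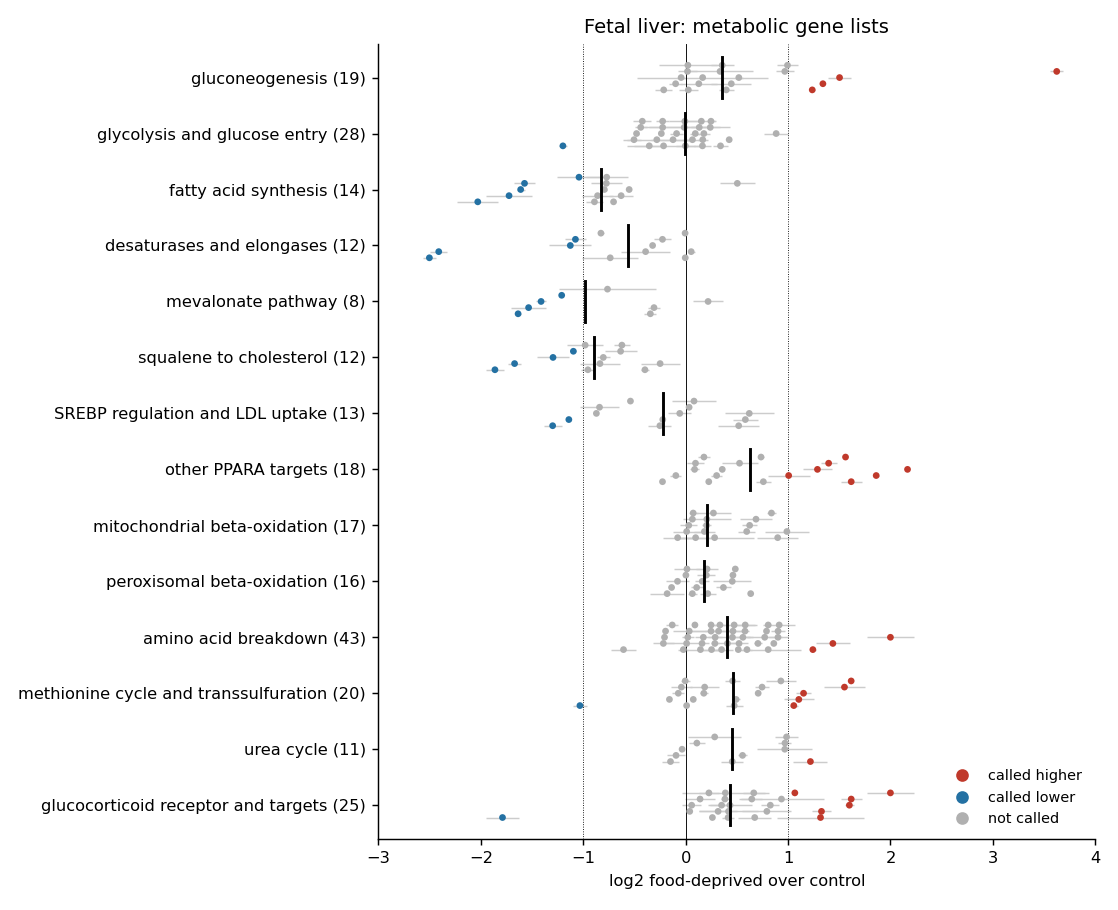
Log2 ratios of measured members of 14 metabolic gene lists in fetal liver (number of members in brackets): points are means of both arrays, grey lines join the arrays, black bars are list medians, and dotted lines mark a 2-fold change. Called members are red (higher) or blue (lower); the fatty acid, desaturase and sterol list medians lie left of 0 and the amino acid list medians right of it.

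Enzymes that start the breakdown of several amino acids rose. Of 43 measured genes 3 rose, none fell and 37 had means above 0, with a median of 0.41. Of all measured genes 0.465% were called higher and 51.2% lay above 0. Tat, the tyrosine aminotransferase that appears in liver around birth, went from 711 and 813 to 3339 and 2772, Aass, the first enzyme of lysine breakdown, from 3069 and 3297 to 9305 and 7979, and Sds, the serine dehydratase, from 238 and 258 to 574 and 598. Below the rule lay Hal (histidine) at 1.00 and 0.80, Prodh (proline) at 0.97 and 0.83, Cdo1 (cysteine) at 0.76 and 1.07 and Aadat at 0.86 and 0.87. Glud1, the glutamate dehydrogenase, had the lowest mean at -0.73 and -0.48.

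Methionine and one-carbon metabolism gave the highest count of rises among the amino acid lists. Of 20 measured genes 5 rose and 1 fell, with a median of 0.47, beside 0.465% of all measured genes called higher and 0.266% called lower. Cth, which makes cysteine from cystathionine, rose from 3372 and 4115 to 10341 and 12618 (1.62 and 1.62), and Bhmt, which remethylates homocysteine with betaine, from 7749 and 5170.1 to 19805 and 17370.3. Mat1a, the liver synthetase of the methyl donor S-adenosylmethionine, rose from 5768 and 6239.5 to 11678 and 13324, and Gnmt, the glycine methyltransferase that uses up that donor, from 9237 and 8843 to 19472 and 20701. Inmt, an amine methyltransferase, rose from 145 and 170.2 to 345 and 331. Gamt, which methylates guanidinoacetate to creatine, fell from 7601 and 7663 to 3903 and 3568. Cbs, the step before Cth, gave 0.041 and 0.33. In the urea cycle 1 of 11 genes rose, the arginase Arg1, from 8806 and 9277 to 18271 and 24216; Asl at 0.87 and 1.10 and Cps1 at 1.03 and 0.91 came close, and Otc, the X-linked transcarbamylase, gave -0.23 and -0.064. None of 26 amino acid transporters was called, from Slc16a10 at -0.72 and -0.51 to Slc6a6 at 0.20 and 0.58.

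Targets of stress factors and hormones were read with the metabolic genes. Among 29 targets of ATF4, the factor of the amino acid response, 3 rose, beside 0.465% of all measured genes called higher. Trib3, a pseudokinase that restrains insulin signalling, rose from 300.3 and 327 to 812 and 936. Ddit4, an inhibitor of the growth kinase mTORC1, rose from 3442 and 3117 to 8074 and 8357, and Eif4ebp3, a repressor of cap-dependent translation, from 3014 and 3318 to 9111 and 9072. Widely used markers of this response were not called, with Asns at 0.097 and 0.063, Chac1 at 0.088 and 0.11 and Phgdh, of serine synthesis, lowest at -0.93 and -0.63; the list median was -0.024 and took the other sign under 3 settings. The ATF4 letters TGATGNAAN occur in 7 of 25 promoter entries of this list (28.0%), in 3.9% of the table and in 2.5% of measured genes with an entry. Of 25 genes of the glucocorticoid list 6 rose, 1 fell and 24 had means above 0, beside 51.2% of all measured genes, with a median of 0.43. Besides Tat, Ddit4 and Angptl4, the rises were Gadd45b, a stress-induced growth regulator (373 and 367 to 1166 and 1079), the factor Cebpd (2724 and 3105 to 5643 and 6575) and the metallothionein Mt2, whose arrays differed more (1.74 and 0.89) and which was not called on the second array alone. Fkbp5 and Tsc22d3, widely used markers of the receptor's activity, gave 0.36 and 0.47 and 0.52 and 0.83, and the receptor Nr3c1 0.027 and 0.053. The fall was Serpina6, the plasma globulin that carries glucocorticoids, from 4421 and 4167 to 1141 and 1353 (3.45-fold). Txnip, which restrains glucose uptake, was the only called gene of 24 in the growth arrest and FOXO list, from 2630.5 and 2667 to 6893 and 6978.

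Growth factor and receptor genes were largely below the rule. Igfbp1, the binding protein that limits insulin-like growth factors in fasting, had signals of 20915 and 30575 in control and 63074 and 43510.4 in food-deprived RNA, log2 ratios of 1.59 and 0.51. Its mean of 1.05 exceeds 2-fold, but the second array fell short of 1.5-fold, so it was not called. Igf2, the main fetal growth factor, gave 0.11 and -0.26, Igf1 -0.14 and -0.39, the growth hormone receptor Ghr -0.31 and -0.51 and the prolactin receptor Prlr -0.59 and -0.94. The other large mean without a call was that of Fibin at 1.89 and 0.32. Just inside the rule lay Fhad1 and Adora1, an adenosine receptor, both at a mean of 1.00, and Aqp8 and Pcolce2 at -1.01. Adra2a, an adrenergic receptor that lowers cyclic AMP, rose from 155 and 157 to 593 and 510.4 (3.52-fold); the other measured adrenergic receptors lay between -0.39 (Adra1b) and 0.14 (Adrb1). The glucagon receptor Gcgr gave -0.062 and -0.17. None of 22 nuclear receptors was called, with Nr1i2 (PXR) highest at 0.53 and 1.11 and Ppara at 0.39 and 0.19. In the clock list Tef, a PAR bZIP factor, rose on its brightest probe (411 and 406 to 970.5 and 883), its other measured probes giving 0.18 and 0.074, and Por, the electron donor of the cytochromes P450, rose from 8297 and 7339.6 to 19044 and 17644. The related factors Dbp and Hlf gave 0.97 and 0.86 and 0.90 and 0.87, the repressor Nr1d1 0.59 and 0.30, and the core genes Arntl and Per2 -0.12 and -0.26 and 0.14 and -0.12. The hour at which livers were taken is not given in the sources used here, and its part in the clock values was not tested.

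Liver-specific metabolism of drugs, steroids and bile acids moved in both directions. Of 34 measured cytochromes P450 of families 1 to 3 with Por, 4 rose and 1 fell, beside 0.465% of all measured genes called higher and 0.266% called lower. Cyp3a25 rose from 868 and 1016 to 2807 and 3476, Cyp3a13 from 1909.6 and 1756 to 4356 and 3593 and Cyp2e1, an enzyme of mature hepatocytes, from 1559 and 1648 to 3897 and 3439. Cyp2a4, a steroid hydroxylase, fell from 4621 and 3207 to 1601 and 1247. Several Cyp2c genes shared the lower end without a call, such as Cyp2c29 at -0.82 and -0.98 and Cyp2c70 at -0.79 and -0.96. Of 30 bile acid genes 3 rose, the organic anion transporters Slco4c1 (177 and 177 to 661 and 571) and Slco1b2 (8593 and 8411 to 16006 and 19464) and the sterol exporter subunit Abcg5 (673 and 645 to 1355 and 1491); Cyp7a1, which starts the main route from cholesterol to bile acids, gave 0.19 and 0.12. Among 38 conjugating enzymes only the sulfotransferase Sult1d1 was called, rising from 1489 and 1682 to 3786 and 4203. Of 22 carbonic anhydrases and steroid enzymes 4 fell. Car3, the carbonic anhydrase of liver and fat, went from 990.3 and 1113 to 230.1 and 270.5, and the aldo-keto reductases Akr1c6 from 6527 and 6638 to 1569.9 and 1746, Akr1c20 from 1431 and 1473 to 433 and 484 and Akr1c18, which inactivates progesterone, from 726 and 629 to 216 and 229. Rdh11, a retinol dehydrogenase, fell from 7033 and 7244 to 2441 and 3002, and Aqp8, a water channel of hepatocytes, from 43288 and 35179.7 to 19964 and 18842; Aqp8 lost its call under 4 settings. Upp2, a uridine phosphorylase, rose from 214 and 231 to 492 and 533.

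Few secreted plasma proteins of hepatocytes were called. Besides Serpina6, Ttr, which carries thyroxine and retinol-binding protein, had signals of 7105 and 7394 and 4068 and 3455 and ratios of -0.80 and -1.10, and Serpina7, the other thyroxine carrier, -0.89 and -0.99; neither was called. Mbl2, a lectin that starts complement, was the only called gene of 40 in the coagulation and complement list, falling from 14926 and 15718 to 7673 and 6994, and the complement inhibitor C4bp, in no list, fell from 2994 and 2659 to 1126 and 1041. The acute phase serpins Serpina3m and Serpina3n rose from 13451 and 16830.4 to 29166 and 33455 and from 2069.6 and 1947 to 4085 and 4919, while the amyloid Saa1 gave 0.092 and -0.034 and haptoglobin Hp 0.93 and 0.37. The chemokine Cxcl10 fell from 755 and 872 to 346 and 281, the single call among 38 interferon and antigen presentation genes, with the GTPase Iigp1 next at -0.95 and -0.83. The median of that list was -0.071 and took the other sign under median centring (0.093).

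Genes of protein and energy housekeeping gave few calls. Cirbp, a cold-inducible RNA-binding protein, rose from 1136 and 1176 to 4459 and 3853 (3.59-fold), with its relative Rbm3 at 0.95 and 0.99. Hsph1, a cytosolic chaperone of the heat shock response, fell from 1658 and 1672 to 839 and 672, and Hsp90aa1 gave -0.77 and -0.63; the other 26 measured cytosolic chaperones were not called, and the list median of -0.12 became 0.026 under median centring. None of 25 endoplasmic reticulum chaperones was called, with 20 below 0 and a median of -0.28 (-0.080 under median centring). The proteasome had 29 of 32 subunits below 0 and a median of -0.17, which turned to 0.085 under median centring. Oxidative phosphorylation had 50 of 55 subunits above 0, beside 51.2% of all measured genes, and a median of 0.20, above 0 under each other setting. Cytosolic ribosomal proteins had medians of 0.27 on the first array and -0.15 on the second, opposite in sign. None of these subunits was called.

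The pools were checked against markers of the labelled tissue. Hepatocyte markers were present in both conditions on both arrays: albumin (Alb) had signals of 45726 and 67687 in control and 57144 and 45973 in food-deprived RNA, which overlap, and the fetal form Afp 43831 and 50766 and 44798 and 27973. Of 9 measured hepatocyte markers 1 was called (Apob), and their summed signals were 213695 and 318677 in control against 302942 and 275616 in food-deprived RNA. Summed signals, here and below, follow the brightest probes of a list and do not measure the amount of a cell type. The list's median was 0.54 on the first array and -0.13 on the second. Of 12 listed markers of adult hepatocytes 8 were measured, 7 of them with means above 0, beside 51.2% of all measured genes. Their median was 0.37, 1 was called higher (Cyp2e1), and their sums were 23978 and 25201 against 33642 and 33258. Markers of a fetal program had no call among 13 measured, and 9 had means below 0. The lowest was Krt8 with a mean of -0.63 and the highest Gpc3 at 0.39 and 0.25, while H19 gave 0.18 and -0.17 and Dlk1 0.074 and -0.14. The list median of -0.070 took the other sign under median centring and on the first array alone.

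Erythroid genes, from the red cell precursors that fill the fetal liver, lay below 0 in 23 of 25 measured members, with a median of -0.30 (-0.066 under median centring) and no call. Of all measured genes 51.2% lay above 0. Their summed signals were 239611 and 231182 in control against 215066 and 187968 in food-deprived RNA. The erythroid factor Klf1 was lowest at -0.56 and -0.59, with Tal1 at -0.70 and -0.41 and Gata1 at -0.12 and -0.24, while the adult globin Hba-a1 gave 0.15 and -0.75 and the heme enzyme Alas2 -0.13 and 0.020. Genes of DNA replication lay below 0 in 28 of 29 cases, with a median of -0.27 (-0.045 under median centring), and those of mitosis in 27 of 31, with a median of -0.20 that median centring brought to 0; Mcm4, a subunit of the replicative helicase, gave -0.34 and -0.62, and the proliferation marker Mki67 -0.50 and -0.31. Ccnd1, the growth-controlled cyclin of hepatocytes, gave -0.65 and -0.61. Red cell precursors are dividing cells, and the part that the number of such cells has in the hepatocyte and cell cycle values was not tested.

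Markers of the other cell types had no call except in the intestinal list. Medians were 0.077 over 11 progenitor genes (11 above 0), 0.074 over 19 Kupffer cell and macrophage genes, 0.0040 over 13 granulocyte genes, 0.025 over 14 lymphocyte genes, 0.14 over 13 megakaryocyte and mast cell genes, 0.11 over 19 endothelial genes and -0.016 over 17 stellate cell genes. Summed macrophage signals were 71621 and 63204 in control against 69548 and 60919.6, and summed endothelial signals 19532 and 18203 against 21160.0 and 21052. In the bile duct list Krt23 gave 0.78 and 0.93 and Cldn7 -1.13 and -0.75. The intestinal list held a fall of the keratin Krt20 (3141 and 3302 to 1012 and 1084) and a rise of the galectin Lgals4 (454 and 507 to 978 and 1116), while its defining Vil1 gave -0.36 and -0.22 and 4 of 10 listed genes, among them Cdx2, were not above background. Muscle genes had 14 of 16 means below 0 and a median of -0.17, with summed signals of 4156 and 4543 in control against 3607 and 3844, and placental and adrenal or kidney lists had 4 of 10 and 3 of 12 members measured.

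**Figure D4:**
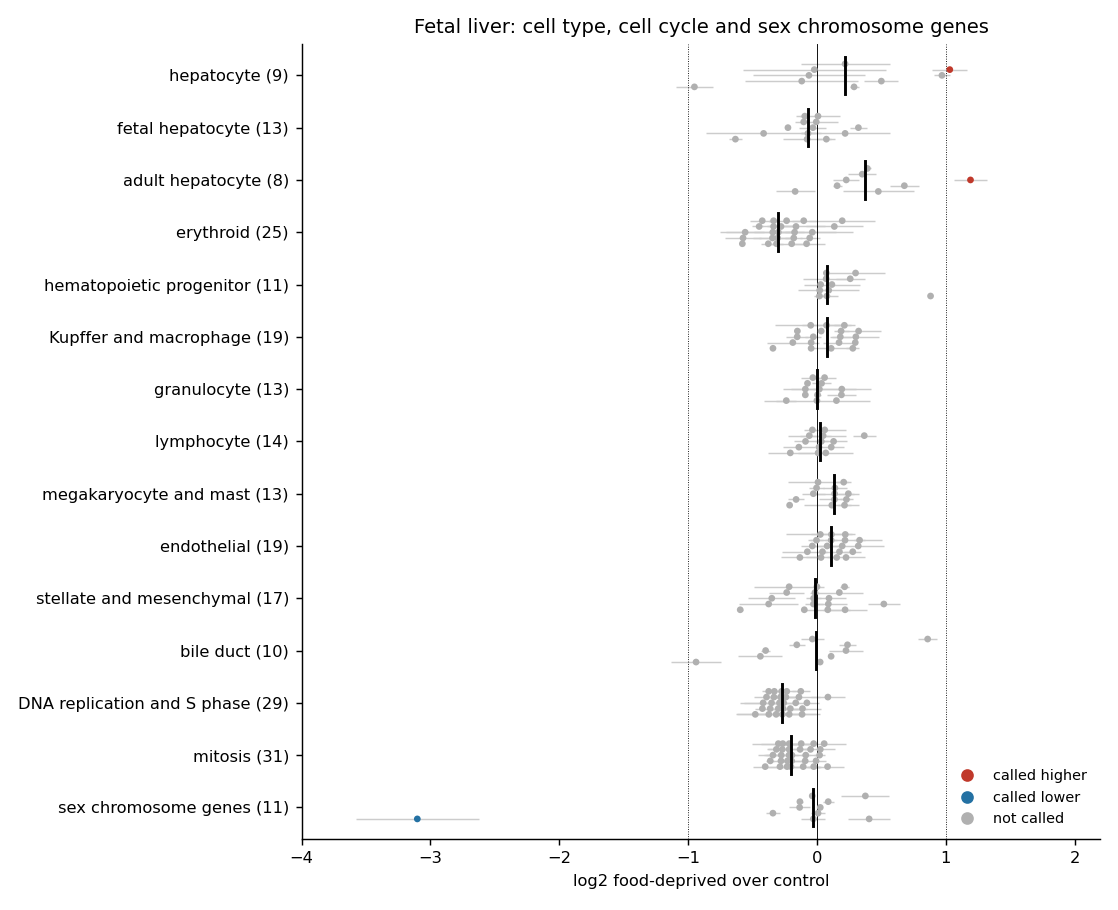
Log2 ratios of measured markers of 12 cell type lists and of the cell cycle and sex chromosome lists in fetal liver (number of members in brackets), drawn as points for the mean of both arrays, grey lines between the arrays and black bars for list medians. Erythroid and cell cycle genes lie mostly left of 0 within the 2-fold lines, and Xist lies far to the left.

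Xist, the RNA expressed from the inactive X chromosome of females, fell from control signals of 576 and 681 to 48.1 and 111 on its brightest probe. The food-deprived signals were not well above background on either array, so the change is given as a bound of at least 6.89-fold on that probe. Its 4 measured probes all lay below 0, with means from -3.10 to -0.26. Of the Y-linked genes Ddx3y gave 0.57 and 0.24 and Eif2s3y 0.56 and 0.19, above 0 on both arrays, and Kdm5d 0.032 and 0.019, Uty 0.13 and 0.046 and Zfy1 -0.043 and 0.059. The X-linked Eif2s3x, which escapes inactivation, gave -0.29 and -0.39, and Kdm5c -0.22 and -0.054. The share of female fetuses in the pools is not given, and sex and food deprivation cannot be told apart for any gene that differs between male and female fetal liver. Imprinted genes had no call among 20, with Mest lowest at -0.52 and -0.51, and enzymes of DNA and histone methylation none among 31, from Ezh2 at -0.36 and -0.15 to Kdm6b at 0.42 and 0.15.

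In all, 51 called genes, 38 higher and 13 lower, belong to none of the 77 lists, 18 of which hold cell type markers. Among the rises with a known role were Lhpp, a histidine phosphatase (890.3 and 785 to 3143 and 2914, 3.62-fold), Retreg1, a receptor for degradation of endoplasmic reticulum (407 and 459 to 1143 and 1127), Rab30, a small GTPase of the Golgi (269.9 and 282 to 738 and 715), and Ppp1r1a, an inhibitor of protein phosphatase 1 (253 and 287 to 752 and 678). The coactivator Ppargc1b, the mitochondrial ADP/ATP carrier Slc25a4 and the sterol-binding Stard5 rose 2.04-fold, 2.02-fold and 2.17-fold. Dcxr, a xylulose reductase, rose on 2 of its 3 probes (means of 1.17 and 1.02) and gave -0.012 on the dimmest. The transcript 2300002D11Rik, of unstated function, had the largest rise after Pck1 and Cyp4a14 (187 and 207 to 967 and 789). Zmynd10 and Dnahc2, known from motile cilia, rose from 174 and 226 to 491 and 484 and from 303 and 363 to 917 and 885. Among the falls, Egr1, an immediate early transcription factor, went from 1246 and 1425 to 472 and 441 and the calcium pump Atp2b2 from 340.0 and 307 to 129 and 166.

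Several called genes are neighbours on a chromosome. Of 118 called genes placed in the RefSeq table, 14 lie in 6 runs in which the next gene called the same way is at most 3 measured genes away. No matching count was made for other sets of measured genes, so whether 14 is many was not tested. The runs are Cyp4a12a, Cyp4a14, Cyp4a10 and Cyp4a31 on chromosome 4, Acot1 with Acot5 and Serpina3m with Serpina3n on chromosome 12, Akr1c6 with Akr1c20 on chromosome 13, and Fads2 with Fads1 and Scd2 with Scd1 on chromosome 19. Each run consists of related genes of 1 family, whose probes may detect each other's RNA.

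The maternal arrays were read the same way for comparison. In maternal liver 555 of 16148 measured genes were called (3.44%), 252 higher (1.56%) and 303 lower (1.88%). These counts depend on the scaling. With median centring of each array 45 maternal genes were called higher and 82 lower, beside 68 and 23 in the fetus. Maternal rises were then fewer than fetal rises. The overlaps below were taken with loess. Of the 84 fetal rises 67 were measured with the same probe in the mother: 28 (41.8%) were called higher there too, which is 11.5% of the 243 maternal rises (1.57% of genes) on those probes, 36 were not called and 3 were called lower. Of the 48 fetal falls 46 were measured: 23 were called lower in the mother, 7.8% of the 293 maternal falls (1.89% of genes) on those probes, and none higher. Median ratios of these genes were 1.23 in the fetus and 0.78 in the mother for the rises, and -1.39 and -1.02 for the falls; the genes were chosen for their fetal values, which favours the larger fetal medians.

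By the same fold rule applied to the difference between livers, 28 of 67 fetal rises and 14 of 46 fetal falls measured in both differed from the mother. With median centring 26 of the genes then called in the fetus differed, beside 42 with loess. Over all 15513 genes measured in both the share was 2.98%. The 2 shares are not alike, since the called genes were chosen for large fetal ratios, which favours a difference. Pck1 changed more in the fetus, with maternal ratios of 1.13 and 1.00 against 3.56 and 3.69. Scd2 fell in the fetus alone by the call rule, with -0.33 and -0.32 in the mother, and so did Pnpla3 (-0.67 and -0.25), Fads2 (-0.21 and 0.30) and Egr1 (0.36 and 0.18). Of the 5 genes of methionine metabolism that rose in the fetus, Cth, Bhmt and Gnmt gave maternal ratios of -0.073 and 0.0054, -0.29 and 0.13 and -0.026 and -0.24. Inmt was called lower in the mother at -1.99 and -1.77, and Mat1a was not measured there. The list medians were 0.47 in the fetus and -0.21 in the mother for methionine genes, and 0.41 and -0.12 for amino acid breakdown. Of the 7 PPARA targets called higher in the fetus, 5 changed more in the mother by the difference rule. Cyp4a14 gave 4.76 and 4.26 there, Pdk4 3.63 and 3.53 and Acot1 3.85 and 3.78. Cyp4a31 gave 3.16 and 3.12, and Cyp4a12a, on the same probe as in the fetus, 2.62 and 2.81. The others did not differ by that rule, with Cyp4a10 at 2.35 and 2.41 and Angptl4, whose ratios were lower in the mother than in the fetus, at 1.30 and 1.15. The list median was 1.72 in the mother against 0.63. Eif4ebp3, of the ATF4 list, gave 3.60 and 3.22 in the mother. Fgf21, not called in the fetus, had a maternal mean of 2.65, and Igfbp1 one of 3.41. Srebf1, Idi1 and Car3 also fell more in the mother, with -2.71 and -2.67, -2.87 and -3.11 and -3.84 and -3.85. The proteasome list, at -0.17 in the fetus, had a maternal median of 0.40. None of these differences was tested, since each liver has 1 pool per condition.

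**Figure D5:**
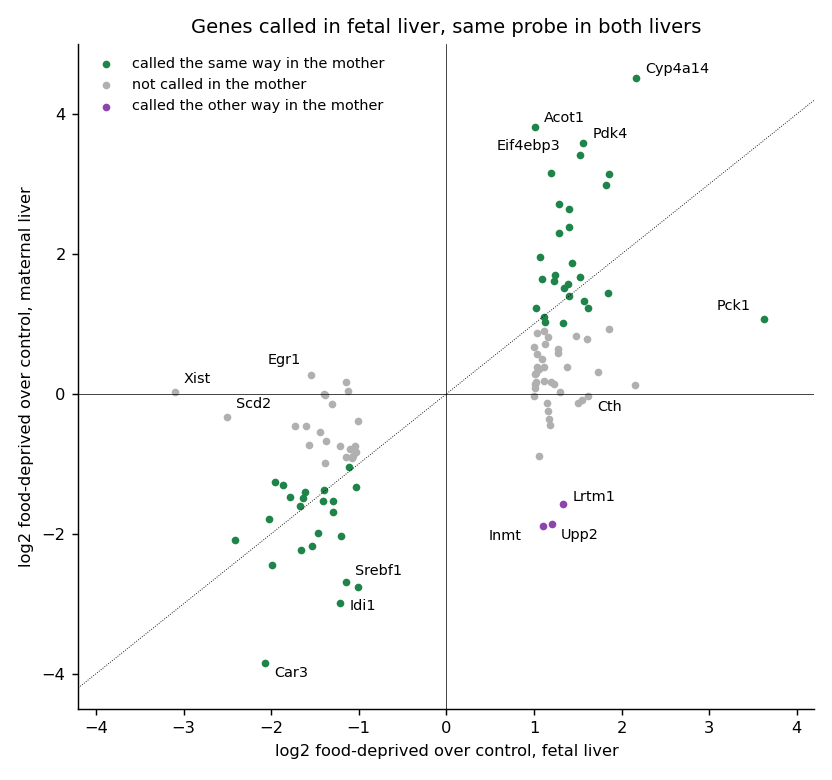
Mean log2 ratio of food-deprived over control in fetal liver (x axis) and maternal liver (y axis) for the called fetal genes measured with the same probe in both; green genes were called the same way in the mother (28 rises and 23 falls), grey were not called there and purple were called the other way. Pck1 lies far below the dotted line of equal change, and Acot1, Pdk4 and Cyp4a14 far above it.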

How the data were processed

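Liver RNA was measured on 4 Agilent 2-colour arrays of 1 slide read in 1 scan, 2 fetal and 2 maternal, each pair with the dyes exchanged. Agilent Feature Extraction made the deposited spot intensities and log10 ratios of red over green (version 9.5.1.1 per the file headers, 9.5.3.1 per the submitters' processing notes). The series table deposited by the authors holds the same ratio, rounded and given a sign whose meaning is unknown: its columns are all negative or all positive by dye orientation (fetal medians of -0.92 and 0.94), and its size follows the scanner ratio (r from 0.99994 to 0.99997 on the log scale). It served as an alternative.

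With limma 3.58.1 in R 4.3.3, mean and local background intensities were corrected by normexp with an offset of 50 and normalised by loess within each array, control spots having weight 0. Outlier spots were dropped, spots of a probe averaged, and the ratio of the second array turned. Printed signals were also scaled between arrays on their average brightness (Aquantile). A gene, taken at its brightest probe, was measured when well above background in either condition on both arrays. Between 61.7% and 69.7% of fetal gene spots were above background per channel, and the number of arrays limits the precision. Xist, at background after food deprivation, has a bound. On each array it was computed against its food-deprived signal or the lowest signal well above background, whichever was higher. Names came from RefSeq accessions for 22951 of 41174 probes, and 18223 kept the name in the files.

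A call needed a mean of at least 2-fold and 1.5-fold on each array. With 1 pool per condition no test was made; the steps were tested on simulated data. Named are the 25 largest rises and falls with a symbol, called list members, the extremes of each list, defining markers, sex chromosome genes and called genes with discordant probes; some genes that this rule names are not reported here. Other uncalled genes and other called genes outside the lists were chosen after their values were seen, and the members and lists were chosen with earlier results of these data known. Alternatives varied background, normalisation, filter, probe rule, outliers and the array left out.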

Additional observations from a re-analysis of the deposited data

Results flagged for a closer look

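Inmt, Lrtm1 and Upp2 moved in opposite directions in the livers: each was called higher in fetal liver and lower in maternal liver, with 1 sign on both arrays of a liver. Inmt was not called in fetal liver on the second array alone, where its log2 ratio was 0.96. The maternal minus the fetal log2 ratio was -2.99 for Inmt, an amine methyltransferase, -2.91 for Lrtm1, a transmembrane protein with leucine-rich repeats, and -3.07 for Upp2, a uridine phosphorylase. The differences were not tested, since each liver has 1 pool per condition.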

How the results depend on the processing

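No called gene with a symbol changed sign under any of the 13 alternatives, and 59 of 125 kept their call under all of them. Median centring in place of loess moved the median of all genes to 0.095 and left 23 fetal falls, 45 maternal rises, 82 maternal falls and 26 called fetal genes that differed from the mother, beside 48, 252, 303 and 42. A normexp offset of 0 gave 73 fetal falls. The scanner's own log ratio gave 233 fetal rises, 173 fetal falls, 663 maternal rises, 808 maternal falls and 115 called genes that differed, and with the series table as deposited these counts were 233, 174, 664, 811 and 116. These log ratios have no offset, and the cause of the higher counts was not tested. With 1 array left out, the ranges were 87 to 105 fetal rises, 48 to 53 fetal falls, 227 to 313 maternal rises, 269 to 368 maternal falls and 43 to 53 that differed. Taking the mean over probes kept 113 of 132 fetal calls. A filter at 10 robust SD above the negative controls, chosen after seeing the data, kept 132. No paired analysis was possible because no result comes from a test and the pool number goes with the dye orientation. Genes near background have compressed ratios, and arrays of 1 pool per condition say nothing of the spread between litters.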
